A study of Mus musculus with 52 samples.

Results

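The integrin, selectin ligand and chemotactic receptor genes that hold blood progenitors in the marrow, or let them leave it, were described cell by cell according to the level of Cd34 and of Klf1. The 10 genes were taken by name, all 10 were found among the 28786 genes listed, and the one seen in fewest cells, Itgal, was read in 11 of the 49 cells kept from 52. They are the integrin chains Itga4, Itgb1, Itgb7, Itga6, Itgal and Itgb2, the P-selectin ligand Selplg, the hyaluronan receptor Cd44, and the receptors Cxcr4 and S1pr1. Cd34 encodes a surface sialomucin used to gate early progenitors, and Klf1 encodes a transcription factor of the red cell lineage.

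Every cell carries the same description, with the label primed HSCs (haematopoietic stem cells). The cells came from the marrow of femora and tibiae of C57BL/6 mice aged 6 to 8 weeks, with genotype Cd4-cre;R26Tdtomato, and were processed by Smart-seq2, which copies full-length cDNA from 1 cell per well. In such mice a Cre recombinase driven by Cd4 can switch on a red reporter, so all cells share that background and none serves as a control. No source used here gives the sort gate, how many mice were used or what primed means. The 49 cells therefore form 1 sample without replicates, and classes of cells are described with no p-value.

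Integrins are pairs of an alpha and a beta chain, and the pair decides which ligand is bound. Alpha4beta1 (VLA-4) holds progenitors on VCAM-1 and fibronectin of marrow stroma, alpha4beta7 binds MAdCAM-1 of gut vessels, alpha6beta1 binds laminin, and alphaLbeta2 (LFA-1) binds ICAM proteins. Selplg (PSGL-1) and the carbohydrates of CD44 let cells roll on selectins, Cxcr4 draws cells towards CXCL12 in the marrow, and S1pr1 draws them towards sphingosine phosphate in blood and lymph.

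Cells were classed by Cd34 and, separately, by Klf1. Cd34 was at 10 CPM (counts scaled to a common total per cell) or more in 14 cells and lower in 35. Its level was 91.0 CPM at the lowest, 637 at the median and 1346 at the highest in the 14 Cd34-high cells, against 0, 0 and 1.66 in the 35 Cd34-low cells, with no cell in between. The cells were also ranked by Klf1 and cut into a lowest tertile of 16 cells (0 to 402 CPM, median 7.18), a middle tertile of 17 cells (505 to 851 CPM, median 736) and a highest tertile of 16 cells (852 to 1648 CPM, median 972). Tertiles are ranges of 1 score and not cell types, and 12 cells lay within 10% of a boundary. The divisions mostly separate the same cells, because 13 of the 14 Cd34-high cells are in the lowest Klf1 tertile. The exception is cell 2, with Cd34 at 91.0 CPM and Klf1 at 1160 CPM. Cells 9, 34 and 37 are in the lowest Klf1 tertile but Cd34-low.

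The classes also differ in depth and in markers of cell types. Cd34-high cells held a median of 1083630 reads (424465 to 7481542) and Cd34-low cells 2556760 (85519 to 12446477), with medians of 5758 and 7466 genes. From the lowest to the highest Klf1 tertile the median was 807892, 2353900 and 3335570 reads. With every cell thinned to 85519 reads the same numbers of genes passed the fold used below (7 by Cd34 and 6 by Klf1). Of the 10 HSC and multipotent progenitor markers all had a read in each class, and their summed level was 708.8 to 3588 CPM (median 2544) in Cd34-high cells against 6.63 to 2556 CPM (median 451) in Cd34-low cells. The 10 erythroid markers summed to 419 to 14606 CPM (median 2090) in Cd34-high cells and to 230 to 18652 CPM (median 11528) in Cd34-low cells, where Hbb-bs was at 0. Car1 and Car2 had the highest medians of these markers in Cd34-low cells, at 5689 and 3323 CPM. Alas2 and Hba-a1 had a median of 0 in both classes, so the sum mostly follows Car1 and Car2. The 6 megakaryocyte markers summed to 0 to 3004 CPM (median 479) in Cd34-high cells and to 0 to 1099 CPM (median 3.29) in Cd34-low cells, where Gp1bb was at 0. The part of these differences between the classes in the results below was not tested. Against the label, Procr and Ly6a, which mark mouse HSCs, reached 10 CPM in 4 Cd34-high cells each and in no Cd34-low cell, while the growth factor receptor gene Kit did so in 14 of 14 and 34 of 35.

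Some cells stand apart. Cell 34 carried 47302 CPM of the 8 neutrophil and monocyte markers, against a median of 1.75 CPM in Cd34-low cells and 719 CPM (190 to 2854, with Elane, Csf1r and S100a8 at 0) in Cd34-high cells. Of that sum in cell 34, 39230 CPM was Lyz2. The same cell carried the highest sum of the 4 dendritic markers (7613 CPM, against a median of 25.3 CPM in Cd34-low cells). Cell 9 carried 7741 CPM of the 6 B lineage markers and 9483 CPM of the 10 erythroid markers. All 10 adhesion and homing genes were at 0 in it, and it was the shallowest cell kept (85519 reads, 1527 genes). Cells 6 and 13 were alike far beyond other pairs (Pearson r of 0.919 over genes, against a median of 0.402), and cells 23 and 25 followed at 0.710. Where leaving out cells 9, 13, 23 and 34 changed a call, both values are given.

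Most cells carried 4 of the 10 genes and few carried the rest. Itga4, Itgb1, Selplg and Cd44 reached 10 CPM in 44, 45, 42 and 40 of 49 cells. Those are the 4 genes at 10 CPM in at least 50% of cells, which was also true of 55.9% of the 9158 genes compared. The genes compared are those that averaged 5 CPM or more and were read in 10 cells or more. Itgb2 reached 10 CPM in 18 cells, Itga6 in 17, Itgb7 in 12, Itgal in 10, S1pr1 in 10 and Cxcr4 in 3. Cxcr4 alone of the 10 genes missed the minimum mean and is not among the genes compared. A cell had a median of 4 of the 10 genes at 10 CPM (2 to 8) when Cd34-high and of 5 (0 to 8) when Cd34-low.

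**Figure D1:**
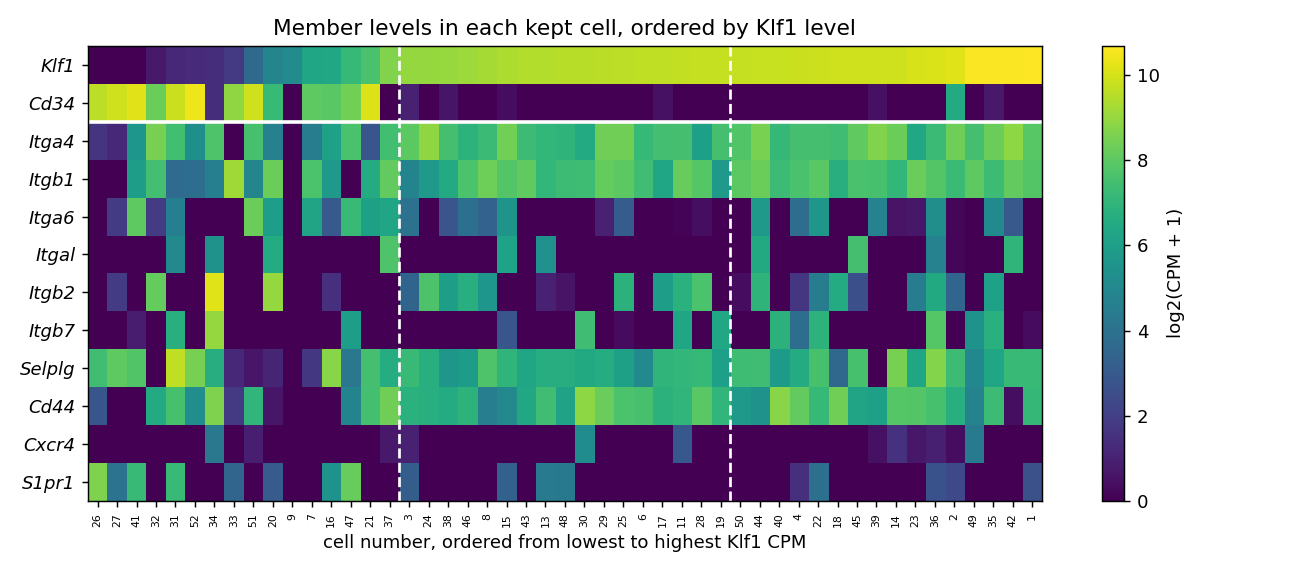
Heat map of log2(CPM + 1) for Klf1, Cd34 and the 10 genes (rows) in each of the 49 cells (columns, from lowest to highest Klf1), with dashed lines between the Klf1 tertiles. Itga4, Itgb1, Selplg and Cd44 were all at 10 CPM in 4, 17 and 14 cells from the lowest tertile to the highest, and Cxcr4 was in 3 cells overall.

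Differences below are the mean of log2(CPM + 1) in one class minus that in the other, and a gene was counted as higher or lower where the size was at least 1, a fold of 2 on that scale. On that scale more genes were lower than higher in Cd34-high cells. Over the 9158 genes compared, 10.6% were higher and 40.8% lower, with a median difference of -0.71. Of the 10 adhesion and homing genes, Itga6 and S1pr1 were higher in Cd34-high cells, and Itga4, Itgb1, Itgb2, Itgb7 and Cd44 were lower, with a median of -1.02. In the highest against the lowest Klf1 tertile, 55.0% of genes were higher and 7.95% lower, with a median of 1.17. There 4 of the 10 (Itga4, Itgb1, Selplg and Cd44) were higher and 2 (Itga6 and S1pr1) lower, with a median of 0.88. When each class is instead summarised by its mean CPM, the background shifts to 19.5% of genes higher and 18.3% lower in Cd34-high cells, and 21.4% higher and 20.2% lower in the highest Klf1 tertile. A gene that is lower in Cd34-high cells therefore shares that direction with many others, and differences are also given after subtracting the median over all genes. A low class mean can hold fewer cells with the transcript or less of it in each, so shares of cells stand beside the levels.

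**Figure D2:**
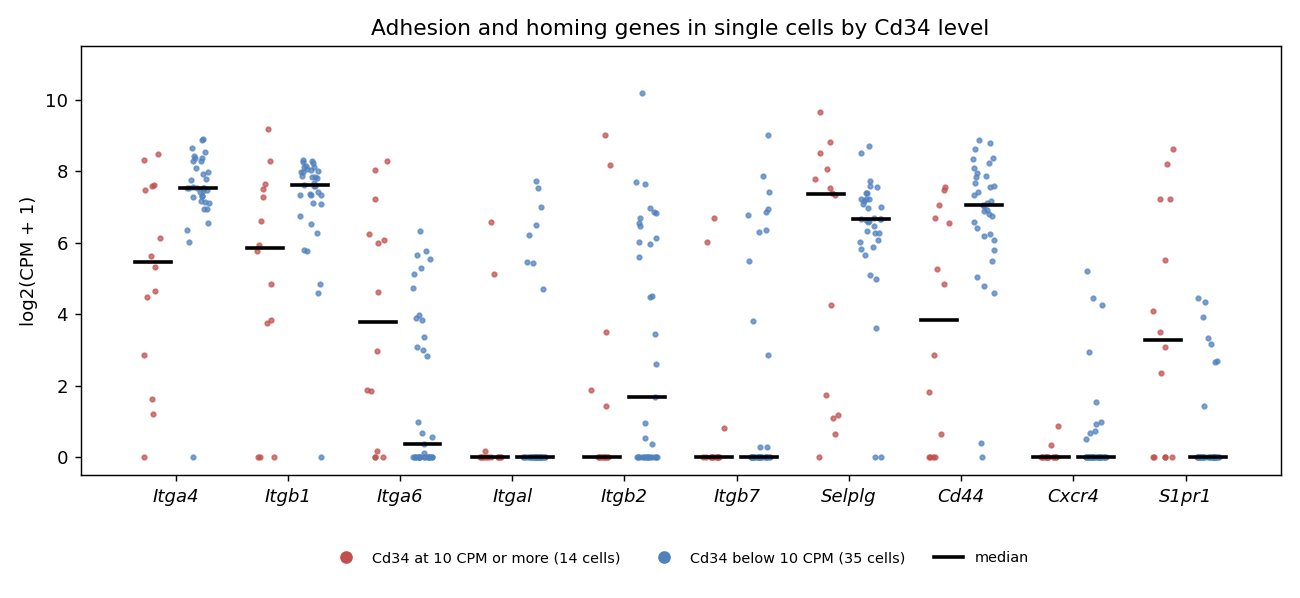
Level of each of the 10 genes, as log2(CPM + 1), in 14 Cd34-high cells (red) and 35 Cd34-low cells (blue), 1 point per cell, with a bar at the median. Itga6 and S1pr1 reach their highest levels in Cd34-high cells (308 and 391 CPM), and the classes overlap for all 10 genes.

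Itga4 and Itgb1 are described first, since together they make VLA-4. Itga4 lies at chr2:79255426-79333123 on the plus strand of GRCm38 and Itgb1 at chr8:128685654-128733200 on the plus strand. The 250 bases upstream of the first base of Itga4, Itgb1 and Cd44 are shown because these genes passed the fold in both comparisons and one comparison ranks cells by Klf1, a factor that binds CACCC-type elements. The regions are chr2:79255176-79255425 (plus strand), chr8:128685404-128685653 (plus strand) and chr2:102901666-102901915 (minus strand), from RefSeq on GRCm38.p6. Capitals mark each match to CCNCNCCC, a KLF-type motif, on either strand, so that a match on the other strand reads as its reverse complement.
Itga4 promoter: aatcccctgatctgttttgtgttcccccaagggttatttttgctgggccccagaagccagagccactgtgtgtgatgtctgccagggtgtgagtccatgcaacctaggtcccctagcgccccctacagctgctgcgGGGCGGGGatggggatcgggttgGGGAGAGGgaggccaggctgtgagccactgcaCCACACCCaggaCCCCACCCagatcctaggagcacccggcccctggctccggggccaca
Itgb1 promoter: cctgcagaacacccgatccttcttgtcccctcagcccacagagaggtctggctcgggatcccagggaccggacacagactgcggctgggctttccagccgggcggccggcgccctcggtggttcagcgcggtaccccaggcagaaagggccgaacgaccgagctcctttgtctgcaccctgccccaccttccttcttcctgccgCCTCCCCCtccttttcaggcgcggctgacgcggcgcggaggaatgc
Cd44 promoter: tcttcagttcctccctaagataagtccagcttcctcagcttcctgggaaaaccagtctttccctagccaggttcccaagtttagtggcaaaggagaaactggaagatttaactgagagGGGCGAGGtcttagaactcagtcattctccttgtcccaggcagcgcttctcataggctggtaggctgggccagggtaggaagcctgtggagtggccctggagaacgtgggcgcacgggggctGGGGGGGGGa
The motif occurred 4 times upstream of Itga4, once upstream of Itgb1 and 3 times upstream of Cd44, where 2 matches overlap in 1 run of G. The same motif was present in 45.9% of 32851 promoter windows of equal length. AGATAA was searched on both strands as the element bound by erythroid zinc finger factors. It was found once upstream of Cd44 and not upstream of Itga4 or Itgb1, and in 9.99% of the windows. Promoter sequences were matched for 5 of the 10 genes, the remaining matches being Itgb7 (2 CCNCNCCC) and Cxcr4 (3 CCNCNCCC). Itga6 and S1pr1 also passed the fold in both comparisons, in the opposite direction, but no promoter sequence was matched for them. A match describes letters and not a bound site.

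Itga4, the alpha4 chain, was broadly present and lower in Cd34-high cells. It measured 0 CPM at the lowest, 43.3 at the median and 355 at the highest in the 14 Cd34-high cells, against 0, 183 and 475 CPM in the 35 Cd34-low cells. The ranges overlap fully, while 10 of 14 Cd34-high cells (71.4%, exact interval 41.9 to 91.6) and 34 of 35 Cd34-low cells (97.1%, 85.1 to 99.9) reached 10 CPM. Means were 104 ± 122 CPM in Cd34-high cells and 215 ± 110 CPM in Cd34-low cells (SD over cells, n = 14 and 35). The difference on the log scale was -2.32, or -1.61 after subtracting the median over all genes. Across the Klf1 tertiles, low to high, the median was 43.3, 177 and 228 CPM, and no cell of the middle or highest tertile was under 64.1 CPM. The highest tertile exceeded the lowest by 2.95, or by 1.79 beyond the median of all genes. Its exons share 1124 bases with Cerkl on the opposite strand (10.3 CPM on average), 16 of 47 cells had an Itga4 estimate that was not a whole number, and no source used here gives the strand setting, so its level is uncertain to that extent.

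Itgb1, the beta1 chain shared by many integrins, followed Itga4 in both comparisons. It measured 0, 56.6 and 573 CPM at the lowest, median and highest in Cd34-high cells, against 0, 196 and 319 CPM in Cd34-low cells. The highest level of all 49 cells belonged to a Cd34-high cell (cell 33), while 3 Cd34-high cells (26, 27 and 47) had no Itgb1 read. The share at 10 CPM was 11 of 14 cells (78.6%, 49.2 to 95.3) when Cd34-high and 34 of 35 (97.1%, 85.1 to 99.9) when Cd34-low. The difference was -2.13 by Cd34 (-1.41 beyond the median of all genes) and 2.93 by Klf1 (1.76 beyond it, and 0.89 with mean CPM per tertile, under the fold). With mean CPM per class the Cd34 difference was -0.64, under the fold of 2, and means were 120 ± 160 CPM in Cd34-high cells and 187 ± 89.8 CPM in Cd34-low cells. Medians over the Klf1 tertiles, low to high, were 40.4, 170 and 211 CPM.

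The VLA-4 pair was found in most cells. Itga4 and Itgb1 were both at 10 CPM in 9 of 14 Cd34-high cells (64.3%, 35.1 to 87.2) and in 34 of 35 Cd34-low cells (97.1%, 85.1 to 99.9). The 1 Cd34-low cell without either gene was cell 9, the shallowest cell kept, which had no read of the 10 genes. In the middle and highest Klf1 tertiles every cell had the pair (17 of 17 and 16 of 16), against 10 of 16 in the lowest. Over the 49 cells, which share a plate method and differ in depth, the Spearman correlation of the pair was 0.16 and the Pearson correlation of log2(CPM + 1) was 0.46. Within the 35 Cd34-low cells these were 0.086 and 0.68, and cell 9, at 0 for each gene, is among them. Itga5, another alpha chain that binds fibronectin, reached 10 CPM in 37 cells, with a difference of -2.60 by Cd34 and 2.35 by Klf1.

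Itgb7, the beta7 chain of the gut-homing integrin, was found in few cells. The gene lies at chr15:102215995-102231944 on the minus strand. It measured 0, 0 and 102 CPM at the lowest, median and highest in Cd34-high cells, and 0, 0 and 515 CPM in Cd34-low cells. The 515 CPM came from cell 34, which held 31.2% of all Itgb7. The minimum of 10 CPM was met by 2 of 14 Cd34-high cells and 10 of 35 Cd34-low cells, and all 12 of them also had Itga4, as did 44 of all 49 cells. The difference by Cd34 was -1.04, at the edge of the fold, and without cell 34 it was -0.84. By Klf1 it was 0.97, 1.64 without cells 9, 13, 23 and 34, and -0.10 with mean CPM per tertile. Itgae, the alphaE chain, which pairs with beta7, had no read in any cell, which leaves Itga4 as the alpha partner of Itgb7 with reads.

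**Figure D3:**
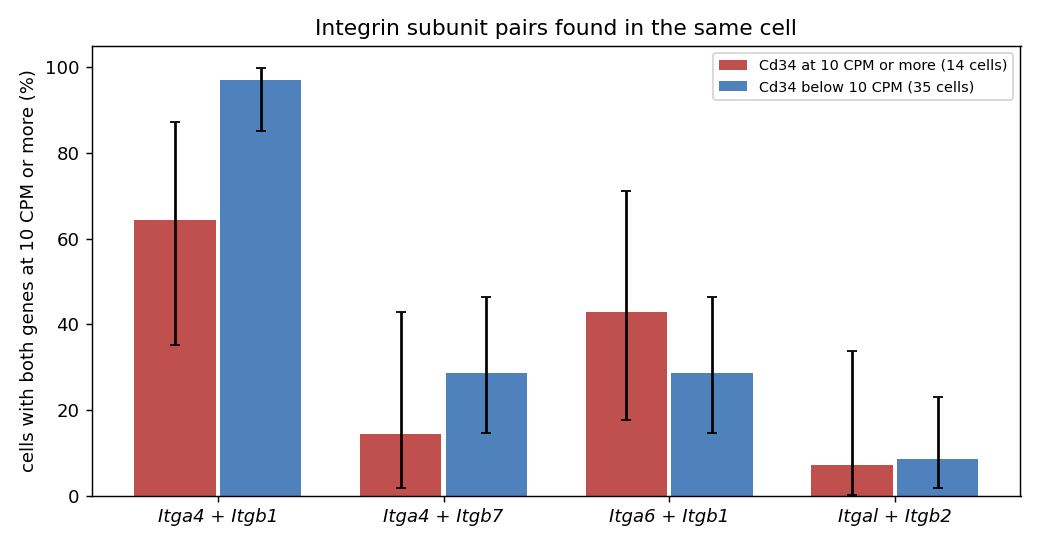
Share of cells, in percent, with both genes of 4 integrin pairs at 10 CPM or more, in Cd34-high and Cd34-low cells, with exact 95% intervals. The alpha4beta1 pair stands at 64.3% of Cd34-high and 97.1% of Cd34-low cells, while alphaLbeta2 stands at 7.14% and 8.57%.

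Itga6, the alpha6 chain of laminin receptors, went the other way from Itga4 and Itgb1. It lies at chr2:71745616-71858416 on the plus strand. Levels were 0, 15.2 and 308 CPM at the lowest, median and highest in Cd34-high cells, against 0, 0.304 and 78.8 CPM in Cd34-low cells. The classes overlap up to 78.8 CPM, and the cells above that (51, 41 and 47, at 308, 260 and 150 CPM) were Cd34-high. Means were 68.4 ± 101 CPM in Cd34-high cells and 11.4 ± 19.6 CPM in Cd34-low cells, a ratio of 5.99. At 10 CPM it was found in 7 of 14 Cd34-high cells (50%, 23.04 to 76.96) and 10 of 35 Cd34-low cells (28.6%, 14.6 to 46.3). The difference was 1.95, or 2.66 above the median of all genes, and placed Itga6 at percentile 96.1 of them. By Klf1 the difference was -1.54 (-2.71 beyond the median, and -0.96 with log2(CPM + 10), under the fold), with medians of 15.2, 0.0803 and 0.544 CPM from the lowest tertile to the highest. Of the 17 cells with Itga6 at 10 CPM, 16 also had Itgb1, as did 45 of all 49 cells, while Itgb4, the other beta partner of alpha6, never reached 10 CPM. The direction by Cd34 held at a matched depth of 85519 reads per cell, where the difference was 1.96.

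Itgal and Itgb2, the chains of LFA-1, were each found in a minority of cells. Itgal lies at chr7:127296260-127335138 and Itgb2 at chr10:77530252-77565708, both on the plus strand. Itgb2 measured 0, 0 and 514 CPM at the lowest, median and highest in Cd34-high cells and 0, 2.25 and 1161 CPM in Cd34-low cells. The 1161 CPM belonged to cell 34, the cell with the neutrophil, monocyte and dendritic markers given above, and made up 34.96% of all Itgb2. Itgal measured 0, 0 and 94.5 CPM in Cd34-high cells and 0, 0 and 212 CPM in Cd34-low cells, and its highest cells were 37, 45 and 42. Both chains reached 10 CPM in 1 of 14 Cd34-high cells and 3 of 35 Cd34-low cells, so 4 of 10 cells with Itgal had Itgb2, close to the 18 of all 49 cells that had it. Of the other alpha partners of beta2, Itgam was at 10 CPM in 1 cell (cell 34, 202 CPM), Itgax was read in the same cell only (762 CPM) and Itgad had no read. The difference of Itgb2 was -1.38 by Cd34, and it fell short of the fold with mean CPM per class (-0.29), with log2(CPM + 10) (-0.66) and with any Cd34 read as the limit (-0.08). By Klf1 it was 0.79, and -2.14 with mean CPM per tertile. Itgal differed by -0.60 by Cd34 and 0.06 by Klf1, under the fold of 2, while with mean CPM per class it passed the fold by Cd34 at -1.22.

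Selplg, which encodes the selectin ligand PSGL-1, was read in most cells of both classes, with a wide spread among Cd34-high cells. It lies at chr5:113818536-113832644 on the minus strand. Its level was 0, 163 and 805 CPM at the lowest, median and highest in Cd34-high cells, and 0, 99.7 and 415 CPM in Cd34-low cells. The median is higher and the share at 10 CPM lower in Cd34-high cells, 9 of 14 (64.3%, 35.1 to 87.2) against 33 of 35 (94.3%, 80.8 to 99.3). The Cd34-high cells fall on either side of a gap, with 9 cells at 17.96 to 805 CPM (median 218) and 5 cells (7, 20, 32, 33 and 51) at 0 to 2.36 CPM. Other genes of the 10 also left a gap among Cd34-high cells, but not between the same cells. No Cd44 level lay between 6.27 and 27.5 CPM, and no Itga6 level between 6.85 and 23.5 CPM. For Itga4 the gap ran from 6.27 to 21.2 CPM. Cells under 10 CPM were 21, 26, 27 and 33 for Itga4. For Cd44 they were 7, 16, 20, 26, 27, 33 and 41, and for Itga6 2, 16, 26, 27, 32, 33 and 52. The 9 cells with Selplg at 10 CPM held a median of 835415 reads and the 5 without it 1524030. Depth ran the other way for 4 genes, as given after S1pr1. The log-scale difference was -0.997, just short of the fold (-1.17 without cells 9, 13, 23 and 34), and the ratio of mean CPM was 1.62, so the direction depends on the summary used. By Klf1 the difference was 1.41 on the log scale and -0.22 with mean CPM, with medians of 99.3, 99.7 and 148 CPM from the lowest tertile to the highest.

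Cd44, the receptor for hyaluronan, had the most negative difference by Cd34 of the 10 genes. The gene lies at chr2:102811141-102901665 on the minus strand. It measured 0, 16.9 and 188 CPM at the lowest, median and highest in Cd34-high cells, against 0, 132 and 466 CPM in Cd34-low cells. All levels above 188 CPM were in Cd34-low cells, and 7 of 14 Cd34-high cells (50%, 23.04 to 76.96) against 33 of 35 Cd34-low cells (94.3%, 80.8 to 99.3) reached 10 CPM. Means were 54.8 ± 69.9 CPM in Cd34-high cells and 163 ± 123 CPM in Cd34-low cells. The difference was -3.05, or -2.34 beyond the median, at percentile 4.08 of the genes compared. By Klf1 it was 2.78 (1.61 beyond the median), or 0.84 and under the fold with mean CPM per tertile, and the medians were 16.9, 119 and 139 CPM from the lowest tertile to the highest. At the matched depth of 85519 reads the Cd34 difference was -3.37. Of 4 compared genes for hyaluronan binding and for the linkage of CD44 to the cell skeleton, none was higher and 2 were lower in Cd34-high cells (median -1.10), near the 40.8% of all genes that were lower. In the highest Klf1 tertile 4 were higher (median 1.42), where 55.0% of all genes were.

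Itga4, Itgb1, Selplg and Cd44 were all at 10 CPM in 3 of 14 Cd34-high cells (21.4%, 4.66 to 50.8) and in 32 of 35 Cd34-low cells (91.4%, 76.9 to 98.2). Over the Klf1 tertiles, low to high, 4 of 16, 17 of 17 and 14 of 16 cells had all 4. These 4 genes were picked for reaching 10 CPM in at least 50% of the 49 cells, of which 35 were Cd34-low. The contrast between the classes is therefore partly set by that choice. Itga6 and S1pr1, which the choice left out, each reached 10 CPM in 7 of 14 Cd34-high cells. Different genes were missing in different Cd34-high cells, with Itga4 under 10 CPM in 4 of them, Itgb1 in 3, Selplg in 5 and Cd44 in 7.

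**Figure D4:**
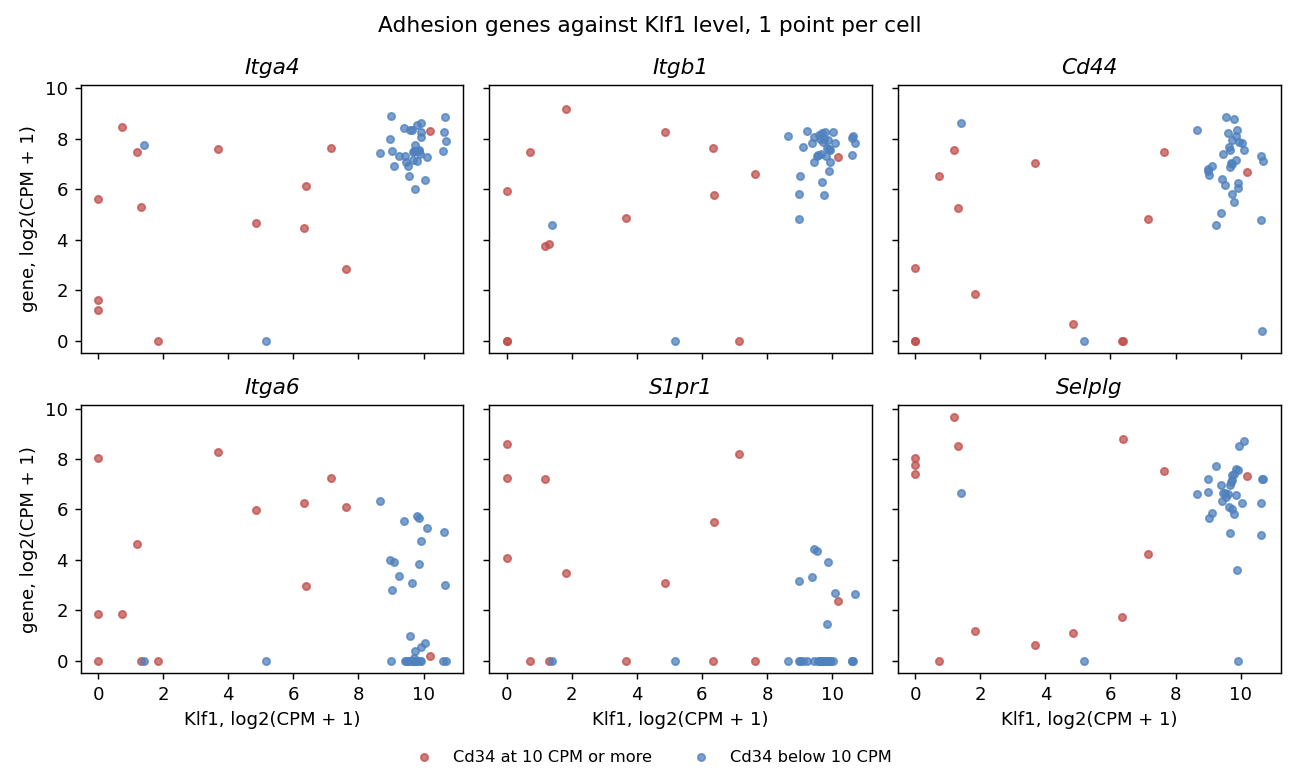
Level of Itga4, Itgb1, Cd44, Itga6, S1pr1 and Selplg, as log2(CPM + 1), against Klf1 in the same cell on the same scale, with Cd34-high cells in red and Cd34-low cells in blue. Every cell of the middle and highest Klf1 tertiles has Itga4 and Itgb1 at 10 CPM or more, and S1pr1 above 20.9 CPM is found in Cd34-high cells only.

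S1pr1, the receptor that senses sphingosine phosphate, was the gene of the 10 with the largest difference towards Cd34-high cells. It lies at chr3:115710433-115715072 on the minus strand. Its level was 0, 8.85 and 391 CPM at the lowest, median and highest in Cd34-high cells, against 0, 0 and 20.9 CPM in Cd34-low cells. Every cell above 20.9 CPM was Cd34-high, led by cells 26, 47, 41 and 31 at 391, 292, 149 and 148 CPM, but 5 of the 14 Cd34-high cells had no read. Means were 75.9 ± 125 CPM in Cd34-high cells and 2.39 ± 5.46 CPM in Cd34-low cells, a ratio of 31.7. At 10 CPM it was found in 7 of 14 (50%, 23.04 to 76.96) and 3 of 35 cells (8.57%, 1.80 to 23.1). The difference was 2.81, or 3.52 beyond the median. In Cd34-low cells S1pr1 was read in 8 of 35 cells at a mean of 2.39 CPM, under the limits of 10 cells and 5 CPM. It is therefore among the genes compared only through the Cd34-high cells, and its rank among them is not given. By Klf1 the difference was -2.15, or -3.31 beyond the median. Among the Cd34-high cells, the 7 with S1pr1 at 10 CPM held a median of 780369 reads and the 7 without it 1746800. For Cd44, Itga6, Itga4 and Itgb1 the Cd34-high cells at 10 CPM were the deeper ones. Median reads were 2343620 in the 7 cells with Cd44 and 752926 in the 7 without it, and 1746800 in the 7 cells with Itga6 and 752926 in the 7 without it. They were 1427940 with Itga4 and 766648 without it, and 1524030 with Itgb1 and 752926 without it. Within the 14 Cd34-high cells Cd44 correlated with total reads at 0.70 (Spearman). The part of depth in which Cd34-high cells lacked these genes was not tested.

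Itga6 and S1pr1 showed no strong relation from cell to cell. Both reached 10 CPM in 3 of 14 Cd34-high cells and at least 1 of them in 11 of 14, against 1 and 12 of 35 Cd34-low cells. S1pr1 was at 10 CPM in 4 of the 17 cells with Itga6 and in 10 of all 49, shares that lie close together. Across the 49 cells their Spearman correlation was 0.20.

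Cxcr4, the CXCL12 receptor, lies at chr1:128588199-128592293 on the minus strand and was seldom read. It measured 0, 0 and 0.843 CPM at the lowest, median and highest in Cd34-high cells and 0, 0 and 35.7 CPM in Cd34-low cells. The 3 cells at 10 CPM were cells 30, 49 and 34, at 35.7, 20.9 and 18.2 CPM, and none was Cd34-high (0 of 14, exact interval 0 to 23.2%). The difference by Cd34 was -0.55, and -1.69 with mean CPM per class, from means of 0.0793 CPM in Cd34-high cells and 2.49 CPM in Cd34-low cells. A read of any size was found in 2 of 14 Cd34-high cells and 10 of 35 Cd34-low cells. Of 21 other chemokine receptor genes, 9 had no read in any cell and 14 never reached 10 CPM. Cx3cr1 was high in cell 34 (853 CPM), and Cxcr2 was read in 46 cells but reached 10 CPM in 9.

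Levels of different genes can be set side by side only per length. Reads per kilobase of merged exons, scaled to a common total per cell, averaged 106 ± 75.2 for Itgb1, 83.9 ± 91.7 for Selplg, 56.0 ± 149 for Itgb2 and 49.9 ± 45.4 for Cd44 (SD over 49 cells). Itga4 averaged 33.4 ± 22.1, Itgb7 30.7 ± 77.3, S1pr1 20.4 ± 63.4, Itga6 8.31 ± 19.1, Itgal 7.50 ± 18.6 and Cxcr4 2.56 ± 9.07 on that scale. Every pair of neighbours in this order lies closer than its spread over cells, and with the longest transcript as length Selplg (119) passed Itgb1 (87.7).

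The 10 genes formed no common gradient. Over their 45 pairs the median Spearman correlation was 0.076, from -0.32 (Cd44 with S1pr1) to 0.34 (Itgb7 with Cd44), and 32 pairs were above 0. Against Klf1 over the 49 cells the correlation was 0.46 for Itga4, 0.44 for Itgb1, 0.36 for Cd44 and -0.31 for S1pr1, and against Cd34 it was -0.51 for Itgb1, -0.41 for Cd44, 0.40 for S1pr1 and 0.35 for Itga6. Within the 35 Cd34-low cells alone the correlation with Klf1 was 0.30 for Itgb1, 0.21 for Itga4 and 0.034 for Cd44, so for Cd44 little of the relation was left inside that class. Depth moves with these, since Klf1 itself correlated with total reads at 0.52 and Cd44 at 0.38, and its part was not tested.

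The genes most like each of the 10 over the 49 cells were, by Spearman correlation, Usf2 (0.56), Poglut1 and Pex5 for Itga4, Gmnn (0.63), Carm1 and Tfdp1 for Itgb1, and Nuf2 (0.62), Nr2c2ap and Ccdc77 for Cd44. For Itga6 they were Rasgrp2 (0.62), Tpm3 and Lamp2, and for S1pr1 Tmem59 (0.60), Myct1 and Mndal. Selplg was nearest to Nsmce1 (0.58), Gpi1 and Nkg7, Itgb7 to Sp2 (0.56), Polr3d and Sirt6, Itgb2 to Serf2 (0.51), Synj2bp and Ube2j1, and Itgal to Stambp (0.47), Snap47 and Atp2a3. The likeness of Cxcr4 to AI597479 (0.59), Parp14 and Zbtb46 fell to 0.20 to 0.27 at the matched depth. There Sp2 with Itgb7 fell to 0.36, Nsmce1 with Selplg to 0.37 and Poglut1 with Itga4 to 0.35.

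A wider list of 182 genes of adhesion, homing and the signalling behind them gave the setting of the 10. Of the 182, 37 had no read, and 90 were among the genes compared. In Cd34-high against Cd34-low cells 27 of the 90 were higher (30%, against 10.6% of all genes) and 23 lower (25.6%, against 40.8%), with a median of 0.15 against -0.71. In the highest against the lowest Klf1 tertile 35 were higher (38.9%) and 28 lower (31.1%), with a median of 0.34 against 1.17.

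**Figure D5:**
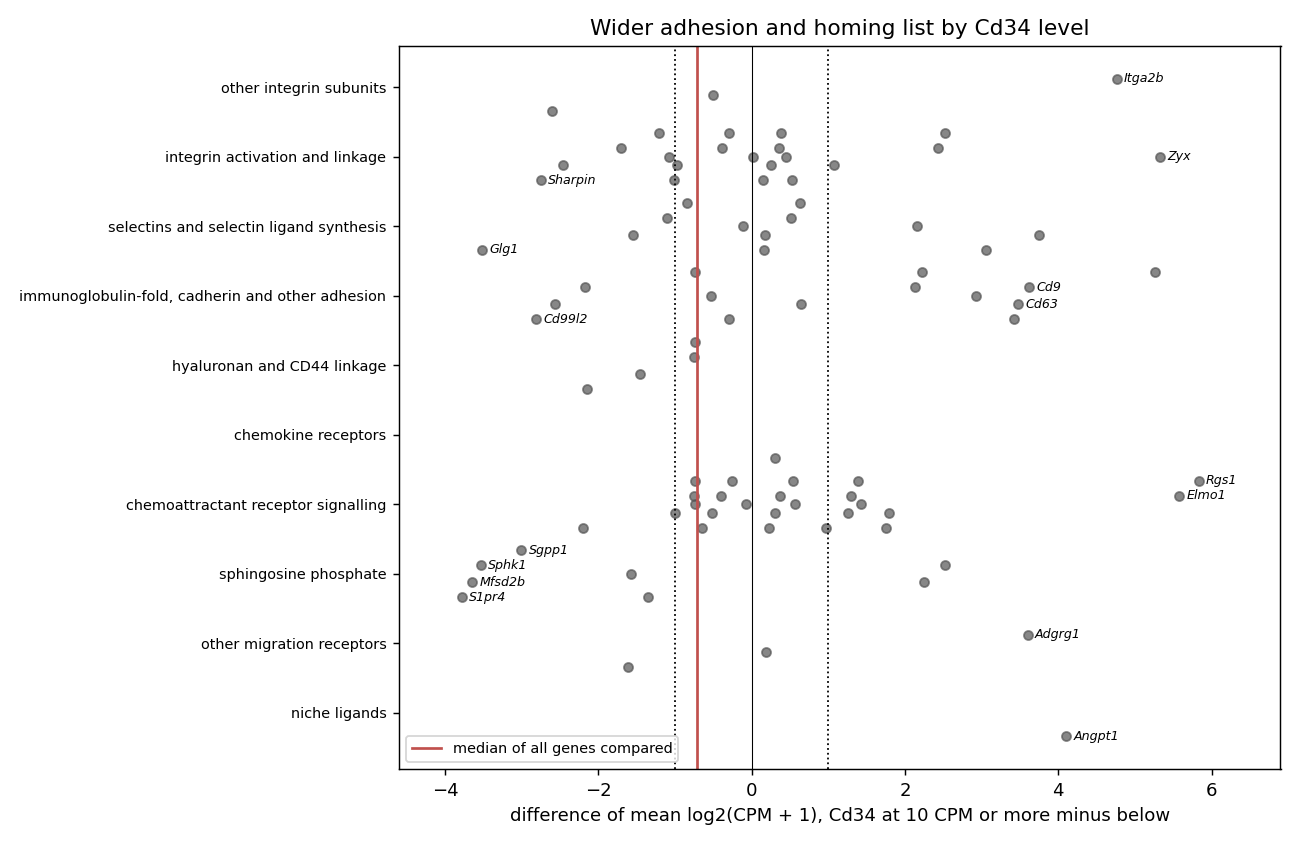
Difference of mean log2(CPM + 1) between Cd34-high and Cd34-low cells for the 90 compared genes of the wider list, 1 point per gene, grouped by set, with a solid line at 0, dotted lines at a fold of 2 and a red line at the median of all genes. Sphingosine phosphate genes lie mostly below 0 (median -2.29), and the chemoattractant signalling set has 8 of 24 genes above the fold and 1 below it.

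Itga2b, the alpha chain of the platelet fibrinogen receptor, was on the Cd34-high side, with means of 438 CPM in Cd34-high cells and 47.4 CPM in Cd34-low cells and a difference of 4.77. It is a megakaryocyte marker, and the summed markers of that type are given above. Zyx, a focal adhesion protein, differed by 5.33, and the tetraspanins Cd9 and Cd63, which sit beside integrins in the membrane, by 3.62 and 3.48. Tln1 and Fermt3, which encode the talin and kindlin that switch integrins on, were at 10 CPM in 49 and 48 of the 49 cells, and Gnai2, the inhibitory G protein used by chemokine receptors, in 49. Sharpin and Itgb1bp1, which hold integrins inactive, were lower in Cd34-high cells, at -2.75 and -2.46. Over the whole set of 20 compared integrin activation and linkage genes, 4 were higher and 6 lower in Cd34-high cells. Of 12 compared genes for selectins and the synthesis of their ligands, 3 were higher and 3 lower, and of 14 immunoglobulin-fold, cadherin and other adhesion genes, 7 were higher and 3 lower, beside 10.6% of all genes higher and 40.8% lower.

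Chemoattractant signalling genes leaned to the Cd34-high side, with 8 of 24 higher (33.3%, against 10.6% of all genes) and 1 lower (4.17%, against 40.8%). Rgs1, which shortens G protein signals of chemokine receptors, averaged 714 CPM in Cd34-high cells and 25.2 CPM in Cd34-low cells, a difference of 5.83. Elmo1, which helps DOCK proteins activate Rac, averaged 190 CPM in Cd34-high cells and 15.4 CPM in Cd34-low cells, a difference of 5.58. Arrb1, a beta-arrestin that ends receptor signalling, was the 1 lower gene at -2.20, and by Klf1 it was higher at 3.27. Adgrg1, an adhesion receptor of progenitors, and Angpt1, a ligand of the niche, were also on the Cd34-high side, at 3.60 and 4.10.

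The other sphingosine phosphate genes mostly differed in the direction opposite to S1pr1, which is also the more common direction over all genes on the log scale. Of the 8 compared, 6 were lower in Cd34-high cells, where 40.8% of all genes were, and 2 higher, with a median of -2.29 against -0.71. By Klf1 6 were higher, where 55.0% of all genes were, and 2 lower, with a median of 2.75 against 1.17. S1pr4, another receptor of the family, had medians of 0 CPM in Cd34-high cells and 162 CPM in Cd34-low cells, a difference of -3.78. Sphk1, the kinase that makes sphingosine phosphate, had medians of 8.51 CPM in Cd34-high cells and 644.3 CPM in Cd34-low cells. Mfsd2b, an exporter of red cells and platelets, had medians of 87.4 CPM in Cd34-high cells and 707.6 CPM in Cd34-low cells. The differences by Klf1 were 4.46 for S1pr4, 4.64 for Sphk1 and 4.15 for Mfsd2b. The phosphatase Sgpp1 differed by -3.01 by Cd34 and 3.21 by Klf1, while the exporter Spns2 went with S1pr1, at 2.52 and -1.99. Glg1, a Golgi protein that is an E-selectin ligand, and Cd99l2, which serves leukocyte passage across vessels, were lower in Cd34-high cells at -3.52 and -2.82.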

How the data were processed

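Single-cell Smart-seq2 libraries of 52 bone marrow cells were analysed. The authors deposited expected counts (Salmon estimates) per gene, and Trim Galore 0.5.0, Salmon 0.03.1 and GRCm38 are named per the submitters' processing notes. No source used here gives the strand setting or the transcript set. Of all values 4.23% were not whole, and estimates were rounded to reads. Cells were kept with at least 50000 reads, 1000 genes and at most 20% mitochondrial reads, which left 49 cells (85519 to 12446477 reads). CPM is the deposited count scaled to a cell's total reads. For a matched depth every cell was thinned to 85519 reads. Smart-seq2 has no molecular identifiers, so 2 reads may be copies of 1 molecule, and intervals (exact Clopper-Pearson, 95%) cover counting error only. Doublets were not called, since the cells are too few.

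Class differences were taken on mean log2(CPM + 1) and counted from a fold of 2. The genes compared were the 9158 that averaged 5 CPM or more and were read in 10 cells or more. With 1 label and no named animal, no test was made. The 10 genes, the wider list and the markers were chosen with earlier results of these data known. Beside the 10, named genes were those of the wider list past the fold and at 10 CPM in at least 10 cells, the 15 largest in each comparison, and the 3 nearest neighbours of each gene. Itga5, Spns2, Tln1, Fermt3, Gnai2, the partner chains Itgae, Itgam, Itgax, Itgad and Itgb4, Cx3cr1, Cxcr2 and Kit were named after their values were seen. Symbols and coordinates came from GENCODE M21 (GRCm38) and promoters from RefSeq (GRCm38.p6). The scripts were tested on simulated data. Python 3.11.15, numpy 2.4.6, pandas 2.3.3, scipy 1.17.1 and matplotlib 3.10.9 were used.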

Additional observations from a re-analysis of the deposited data

Results flagged for a closer look

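Cells 5, 10 and 12 were left out by the limits on depth and mitochondrial reads, and 2 of them carried adhesion and homing genes above the level that a count of 3 reads allows. Cell 5 (307220 reads, 28.3% mitochondrial) had Itga4 at 508 CPM (156 reads), Itgb1 at 355 CPM (109 reads), Itga6 at 368 CPM (113 reads), Selplg at 426 CPM (131 reads) and Cd44 at 169 CPM (52 reads). Its Itga4 and Itga6 exceed those of each of the 49 cells kept, where the highest were 475 and 308 CPM. Cell 12 (32439 reads) had Itgb1 at 247 CPM from 8 reads and Itgb2 at 185 CPM from 6 reads. Cell 10 (39692 reads) had no read of the 10 genes.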

How the results depend on the processing

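No paired analysis was possible because all cells carry 1 label, there are no groups with shared replicate numbers, and no test was made. Across filter, scaling, depth, pseudocount, summary and class limits, 5 to 8 of the 10 genes passed the fold by Cd34 (7 as reported) and 4 to 7 by Klf1 (6 as reported). Leaving out each cell in turn gave 6 to 8 and 5 to 8. With mean CPM per tertile, differences by Klf1 changed sign for Itgb2 (-2.14), Selplg (-0.22) and Itgb7 (-0.10), and Itgb1 (0.89) and Cd44 (0.84) fell under the fold. With mean CPM by Cd34, 7 genes again passed but not the same 7: Itgb1 (-0.64) and Itgb2 (-0.29) dropped out, Itgal (-1.22) and Cxcr4 (-1.69) came in, and Selplg changed sign (0.69). Itgb2 by Cd34 also fell short with log2(CPM + 10) (-0.66) and any Cd34 read (-0.08). Itga4, Itgb1, Cd44, Itga6 and S1pr1 kept their calls when any 1 cell was left out. Without cells 9, 13, 23 and 34, Selplg passed the fold by Cd34 (-1.17) and Itgb7 by Klf1 (1.64). At log2(CPM + 10), 5 and 4 genes passed, and Itga6 by Klf1 (-0.96) did not. Itgb7 and Selplg lie at the fold by Cd34, and leaving out any of 21 and 18 single cells changed their call. Leaving out any of 16 cells moved Itgb7 past it by Klf1. Without cell 20 Itgal passed it (-1.04), without cell 20, 32 or 34 Itgb2 passed it by Klf1 (up to 1.21), and without cell 9, 32 or 51 Selplg fell under it by Klf1. Shares of cells with Itga6, Itgb2, Cxcr4 and S1pr1 were 61.2%, 53.1%, 24.5% and 34.7% at 1 read. In the shallowest cell (cell 9, 85519 reads) 10 CPM is less than 1 read, so a gene at 0 there may be present at that level.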
